A study of Homo sapiens with 6 samples.

Results

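The genes analysed here encode the route by which a cell takes up glucose, splits it to pyruvate, and either reduces the pyruvate to lactate or oxidizes it in mitochondria. They were taken as a list of 49 named genes, by symbol, from the 62710 genes of the deposited table, and all 49 were found. The list holds 24 genes from glucose uptake to lactate export and 25 genes from mitochondrial pyruvate import through the tricarboxylic acid (TCA) cycle. The 6 libraries came from H526 cells, an established small cell lung cancer (SCLC) line grown in RPMI medium with 5% serum. The 3 parental libraries, numbered 1, 2 and 3, came from cells without drug selection. The 3 resistant libraries, numbered 7, 8 and 9, came from onvansertib-resistant H526 cells, grown for over 1 year in onvansertib, an inhibitor of the mitotic kinase PLK1, raised from 10 to 75 nM. Whether the resistant line was 1 clone or a mixed population was not given in the sources used here. RNA was extracted at 3 separate times. The sources did not state that these were separate cultures, or which parental and resistant libraries share a time, so the *p* values below measure only the spread between these libraries.

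In glycolysis, hexokinases trap glucose in the cell, phosphofructokinase commits it to breakdown, and the enzymes from glyceraldehyde phosphate dehydrogenase to pyruvate kinase recover ATP and produce pyruvate. Lactate dehydrogenase regenerates NAD+ by making lactate, which leaves through monocarboxylate carriers. Pyruvate may instead enter mitochondria through the MPC1 and MPC2 carrier, where the pyruvate dehydrogenase complex, held in check by pyruvate dehydrogenase kinases, turns it into acetyl-CoA for the TCA cycle. Tumour cells often use glycolysis and the TCA cycle together, and several of the glycolytic genes are known targets of hypoxia-inducible factor (HIF).

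Values were gene levels normalized by the authors with DESeq2. Genes whose mean value reached 10 were tested with limma on log2(value + 1), and a gene is called higher or lower in resistant cells where the Benjamini-Hochberg adjusted *p* over all 16347 tested genes was under 0.05. Estimated depth was 25614900 to 28477736 reads per parental library and 22306620 to 23344151 per resistant library, which puts the limit of 3 reads at values from 2.67 to 3.23. Pearson correlations of log2 values across genes were 0.983 to 0.985 within groups and 0.941 to 0.948 between groups. All 7 markers of the POU2F3 (tuft) type of SCLC were present in both groups, with summed values of 71717 to 72630 in parental and 65736 to 67423 in resistant libraries. Of these 7, 4 were higher in resistant cells, among them *TRPM5* (1.77) and *CHAT* (1.72) as log2 fold changes, and 2 were lower, *AVIL* (-0.80) and *ASCL2* (-0.47). The summed level of the neuroendocrine markers was 11192 to 12564 in parental and 4289 to 4993 in resistant libraries. For 8 markers of fibroblasts, endothelium and blood cells it was 369.9 to 517 and 818 to 1037, with *COL1A1*, *COL1A2* and *VWF* carrying that difference and *DCN*, *PECAM1*, *PTPRC*, *CD3E* and *CD68* at or near 0. The part of these marker differences in the results below was not tested, and in bulk RNA fewer cells of a type and less RNA per cell cannot be told apart.

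Of the 49 genes, 48 were abundant enough to test. More of them were lower than higher in resistant cells, with no single direction for the route as a whole. In all, 21 of 48 (43.75%) were called, 7 higher and 14 lower, where 37.7% of all tested genes were called, 17.8% higher and 19.8% lower. The share called was thus close to that of all genes. The median log2 fold change over the 48 was -0.10, with 30 of 48 below 0, against a median of -0.000858 over all tested genes, of which 50.1% were below 0. The median size of the change regardless of sign was 0.28 in the list and 0.301 over all genes. The groups stood apart, with no overlap of their 3 values, for 28 of 48 genes (58.3%), against 49.9% of all tested genes. The split of the calls depended on scaling, with 9 higher and 10 lower after quantile normalization and 9 higher and 12 lower with libraries scaled to equal medians. Shares of all tested genes under these scalings are not given here, so the list cannot be set against them.

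By segment, the calls were as follows. From glucose uptake to lactate export, 1 of 23 tested genes was higher (*PFKL*) and 6 were lower (*PFKP*, *TPI1*, *GAPDH*, *PGK1*, *ENO1* and *SLC16A1*). From pyruvate import through the TCA cycle, 6 of 25 were higher (*PDK2*, *PDK3*, *IDH3A*, *DLST*, *SUCLA2* and *SUCLG2*) and 8 were lower (*MPC1*, *MPC2*, *DLD*, *CS*, *IDH2*, *IDH3G*, *MDH2* and *SDHA*). Those shares are 30.4% and 56% called, against 37.7% of all tested genes. With a correction for neighbouring genes that is described further on, 6 of 23 (26.1%) and 5 of 25 (20%) were called. Both shares were below the 30.2% of all tested genes called with that correction. The order of the shares thus turned, and whether they differ was not tested.

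**Figure D1:**
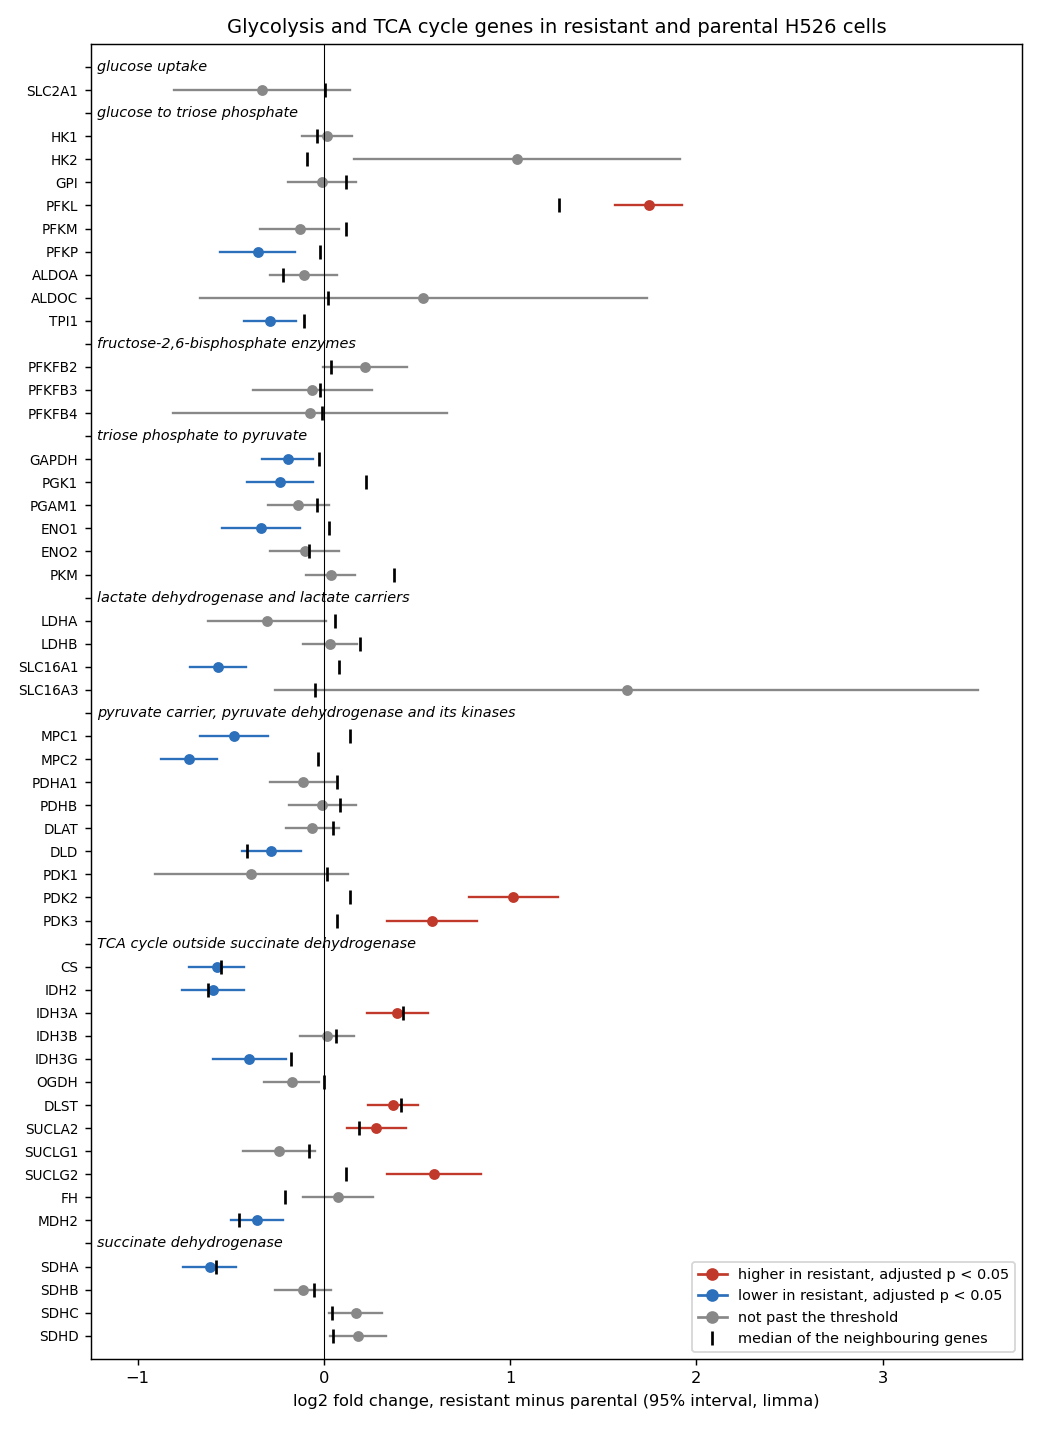
Log2 fold change (resistant minus parental) of the 48 tested genes, ordered by step of the pathway, with bars for the 95% confidence interval from limma colour for the call and black ticks for the median log2 fold change of the neighbouring genes on the chromosome, which is described further on. *PFKL* stands furthest to the right of the called genes at 1.74, *MPC2* furthest to the left at -0.72, and the wide intervals belong to *HK2*, *ALDOC* and *SLC16A3*.

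Glucose enters most cells through the transporters SLC2A1 (GLUT1) and SLC2A3 (GLUT3). *SLC2A1* had values of 3156, 5471 and 3593 in parental libraries 1, 2 and 3 and 2379, 4046 and 3231 in resistant libraries 7, 8 and 9. The groups overlapped, and the log2 fold change was -0.33 ± 0.21 (SE, n = 3 per group, adjusted *p* = 0.249). *SLC2A3* was too low to test, at 5.71, 9.11 and 16.5 in the parental and 10.5, 2.51 and 13.9 in the resistant libraries, so that per kilobase of transcript *SLC2A1* made up at least 99.6% of the pair in each library.

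Of the 2 hexokinases, *HK1* was steady at 2885, 2895 and 2785 in the parental and 2853, 2908 and 2903 in the resistant libraries, a log2 fold change of 0.02 with a 95% confidence interval of -0.12 to 0.15. *HK2*, the inducible form, ranged widely, at 206, 802 and 328 in the parental and 682, 1038 and 663 in the resistant libraries. Parental library 2 lay above resistant libraries 7 and 9, so that the groups overlapped. The log2 fold change of *HK2* was 1.04 ± 0.39 (SE, n = 3 per group, adjusted *p* = 0.0621) with all libraries, 1.58 (adjusted *p* = 0.000968) without parental library 2 and 1.37 (adjusted *p* = 0.00319) without parental library 2 and resistant library 8.

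*PFKL*, which encodes the liver-type subunit of phosphofructokinase (chr21:44300051-44327376, GRCh38, plus strand), had the largest called change of the list. Its values were 2909, 3519.8 and 3202 in parental libraries 1, 2 and 3 and 9959.7, 11303 and 10929 in resistant libraries 7, 8 and 9, with every resistant library above every parental one. The level was 3.34-fold higher in resistant cells, a log2 fold change of 1.74 ± 0.08 (SE, n = 3 per group, adjusted *p* = 4.44e-07). Neither of the other subunits was called higher. *PFKM*, the muscle type, had 2698, 3107 and 2931 in the parental and 2357, 2635 and 3015 in the resistant libraries, overlapping values with a log2 fold change of -0.13 ± 0.09 (SE, n = 3 per group, adjusted *p* = 0.309). *PFKP*, the platelet type, fell from 8618, 10685 and 10461 in the parental to 7071, 7917 and 8232 in the resistant libraries, a log2 fold change of -0.35 ± 0.09 (SE, n = 3 per group, adjusted *p* = 0.0118). The *PFKP* call ended without parental library 3 (adjusted *p* = 0.053) and after quantile normalization (adjusted *p* = 0.102).

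The makeup of the phosphofructokinase transcripts therefore shifted. Per kilobase of the MANE Select transcript, *PFKL* was 19.4%, 19.3% and 18.3% of the summed value in the parental libraries and 49.8%, 50.1% and 47.8% in the resistant libraries. The mean share was 19 ± 0.63% of the parental and 49.2 ± 1.3% of the resistant sum (SD, n = 3 per group), and the groups were separated by many times their spread, with an exact two-sided permutation *p* of 0.1, the smallest that 3 against 3 libraries can give. *PFKP* held 64.8 ± 1.2% of the parental and 39.3 ± 0.5% of the resistant sum and *PFKM* 16.2 ± 0.64% of the parental and 11.5 ± 0.78% of the resistant sum, again without overlap (exact permutation *p* = 0.1 each). The sum of the 3 genes per kilobase was 5825 ± 593 in parental and 7503 ± 541 in resistant cells (SD, n = 3), 1.29 times as high, while *PFKL* alone was 3.34 times as high. *PFKL* was the most abundant of the 3 in resistant cells, and in parental cells it lay above *PFKM* per kilobase of the MANE Select transcript but below it with merged exon lengths (17.7%, beside 19.8% for *PFKM*).

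**Figure D2:**
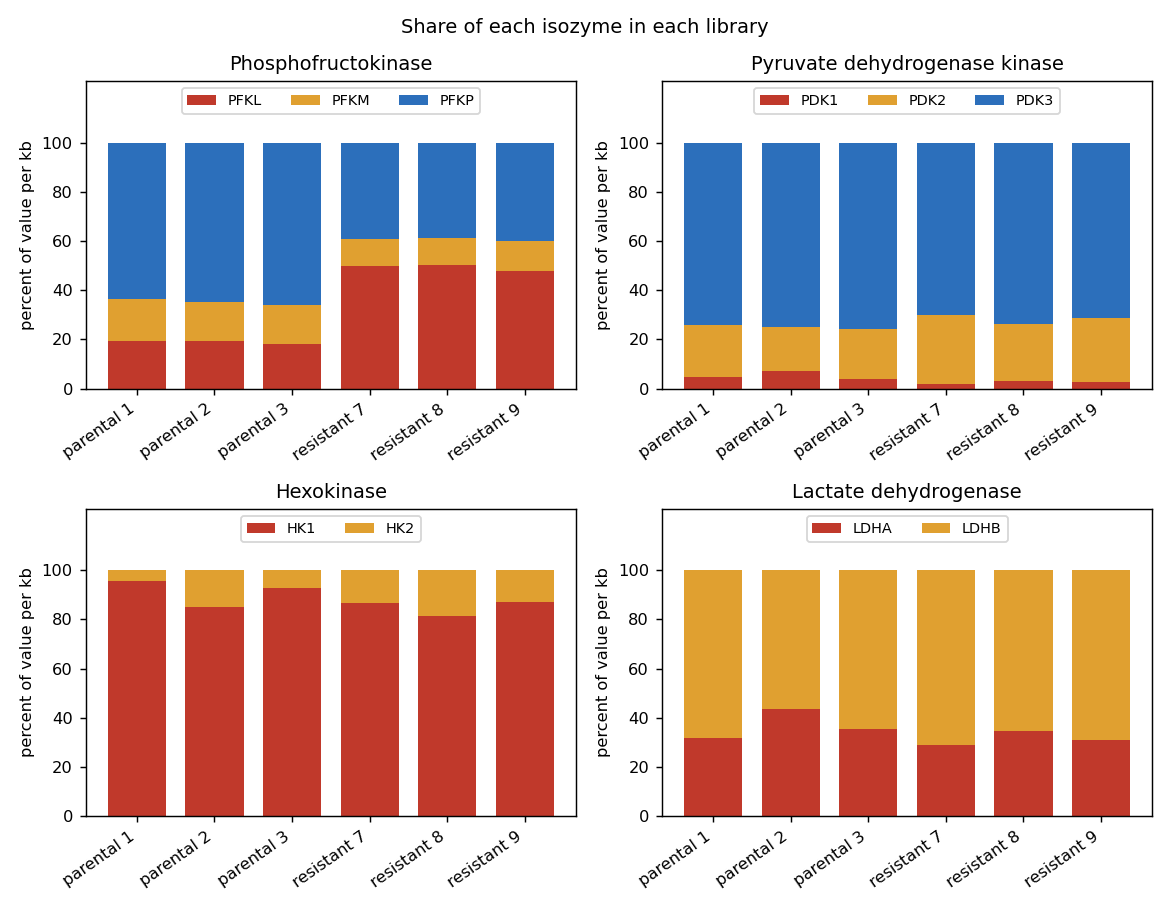
Share of each isozyme in the summed value of its set, in percent per kilobase of transcript, stacked from 0 in 1 bar per library, for phosphofructokinase, pyruvate dehydrogenase kinase, hexokinase and lactate dehydrogenase. *PFKL* fills 18.3% to 19.4% of the parental and 47.8% to 50.1% of the resistant bars, *HK1* is the largest part of its set in all 6 libraries, as is *PDK3* with these transcript lengths, and the *HK2* and *LDHA* parts are largest in library 2 and library 8 of their groups.

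Of the remaining enzymes from glucose to triose phosphate, *TPI1* alone was called. Glucose-6-phosphate isomerase (*GPI*) and the main aldolase, *ALDOA*, were not called, at log2 fold changes of -0.01 and -0.11. *ALDOA* had 20720, 25075 and 20272 in the parental and 20127, 20759 and 20128 in the resistant libraries. *ALDOC*, the brain-type aldolase, had 213, 1122 and 367 in the parental and 396, 1204 and 562 in the resistant libraries, so that its highest values in both groups were from library 2 and library 8. Its log2 fold change was 0.53 ± 0.54 (SE, n = 3 per group, adjusted *p* = 0.469) with all libraries and 1.20 (adjusted *p* = 0.0441) without parental library 2. That setting kept resistant library 8, and *ALDOC* was not called when both libraries were left out. *TPI1*, which interconverts the triose phosphates, fell by 0.29 on the log2 scale (adjusted *p* = 0.00473), a call that ended after quantile normalization (adjusted *p* = 0.0822). The 3 bifunctional enzymes that set the level of the phosphofructokinase activator, *PFKFB2*, *PFKFB3* and *PFKFB4*, were not called, with log2 fold changes of 0.22, -0.06 and -0.07. *PFKFB2* had 529, 466 and 489.8 in the parental and 555, 623 and 554 in the resistant libraries.

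From triose phosphate to pyruvate, 3 of 6 genes were lower in resistant cells and none was higher. Over all tested genes, 19.8% were lower and 17.8% higher. The 3 falls were all smaller than 0.5 on the log2 scale, and 2 of these calls were unstable, as described below. *ENO1*, the main enolase, had 49554, 64204 and 52563 in parental libraries 1, 2 and 3 and 40991, 46545 and 43476 in resistant libraries 7, 8 and 9, and a log2 fold change of -0.34 ± 0.09 (SE, n = 3 per group, adjusted *p* = 0.0178). Its groups did not overlap, and the call ended without resistant library 7 (adjusted *p* = 0.0687). *ENO2*, the neuronal enolase, had 6973, 7582 and 6400.1 in the parental and 5910.4, 7062 and 6562 in the resistant libraries, a log2 fold change of -0.10 ± 0.08 (SE, n = 3 per group, adjusted *p* = 0.369). The share of *ENO2* in the enolase pair was 8.96 ± 0.78% of the parental and 10.4 ± 0.26% of the resistant sum (SD, n = 3, exact permutation *p* = 0.1). *GAPDH* and *PGK1*, which oxidize glyceraldehyde phosphate and form the first ATP, fell by 0.19 (adjusted *p* = 0.0318) and 0.23 (adjusted *p* = 0.0414) on the log2 scale.

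The *GAPDH* and *PGK1* calls were the least stable of the list, each ending under 10 of 15 alternatives. For *GAPDH* these included leaving out parental library 2, parental library 3, resistant library 7 or resistant library 9 (adjusted *p* = 0.0971, 0.0568, 0.106 and 0.0963). For *PGK1* they included leaving out parental library 2 or 3 or resistant library 7, 8 or 9 (adjusted *p* = 0.113, 0.0623, 0.1, 0.0924 and 0.079). *PGAM1* (-0.14) and *PKM*, which encodes the pyruvate kinase of most tumour cells (0.04), were not called. Several genes of this stretch have processed pseudogene copies, among them *GAPDH*, *PGK1*, *ENO1* and *PGAM1*, and how the quantification shared reads among copies could not be checked in the normalized values.

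At the lactate step, the carrier *SLC16A1* (MCT1) was lower in resistant cells and the dehydrogenases were not called. *SLC16A1* had 6904, 7418 and 7312 in parental libraries 1, 2 and 3 and 4533, 4849 and 5236 in resistant libraries 7, 8 and 9, with no overlap between groups. Its level was 1.48-fold lower in resistant cells, a log2 fold change of -0.57 ± 0.07 (SE, n = 3 per group, adjusted *p* = 0.000153). *LDHA*, the form most active toward lactate, had 13345, 19860 and 13564 in the parental and 11352, 14183 and 11856 in the resistant libraries, highest in library 2 and in library 8 of its group, with a log2 fold change of -0.30 ± 0.14 (SE, n = 3 per group, adjusted *p* = 0.119). *LDHB* had 16519, 14885 and 14410 in the parental and 16053, 15467 and 15241 in the resistant libraries, a log2 fold change of 0.03 ± 0.06 (SE, n = 3 per group, adjusted *p* = 0.736). The share of *LDHA* in the pair was 37 ± 6% of the parental and 31.7 ± 2.9% of the resistant sum (SD, n = 3), with overlapping groups and an exact permutation *p* of 0.2.

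*SLC16A3* (MCT4), the lactate exporter of glycolytic cells, had the widest spread of the tested genes of the list, at 10.3, 209 and 68.1 in the parental and 94.9, 311 and 159.5 in the resistant libraries. Its log2 fold change was 1.62 ± 0.85 (SE, n = 3 per group, adjusted *p* = 0.16) with all libraries and 2.59 (adjusted *p* = 0.0185) without parental library 2. That setting kept resistant library 8, the highest of its group. With parental library 2 and resistant library 8 both left out, *SLC16A3* was not called. Parental library 2 lay above the resistant libraries 7 and 9, and *SLC16A3* stayed below 9% of the carrier pair per kilobase in every library, with overlapping shares. *BSG*, the chaperone that carries both transporters to the cell surface and which belongs to the list of further pathway genes described below, had 9810.1, 9298 and 9314 in the parental and 5368, 4858 and 5956 in the resistant libraries, and fell along with *SLC16A1* by 0.82 on the log2 scale (adjusted *p* = 3.12e-05).

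Both subunits of the mitochondrial pyruvate carrier were lower. *MPC2* had 4632, 4530.3 and 4674 in parental libraries 1, 2 and 3 and 2847, 2596 and 2947 in resistant libraries 7, 8 and 9, with a wide gap between the groups. This was the strongest decrease of the list, 1.65-fold, with a log2 fold change of -0.72 ± 0.07 (SE, n = 3 per group, adjusted *p* = 2.79e-05). *MPC1* fell by 0.48 on the log2 scale (adjusted *p* = 0.00127), from a mean of 1253 to 897.

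Of the pyruvate dehydrogenase kinases, which switch the complex off by phosphorylating it, 2 of 3 rose, where 17.8% of all tested genes were higher. *PDK2* had 657, 682 and 729.9 in parental libraries 1, 2 and 3 and 1622, 1368 and 1227 in resistant libraries 7, 8 and 9. Every resistant library was above every parental one, 2.04-fold on average, with a log2 fold change of 1.02 ± 0.11 (SE, n = 3 per group, adjusted *p* = 6.62e-05). *PDK3* had 1200.3, 1462 and 1394 in the parental and 2106, 2231 and 1734 in the resistant libraries, again without overlap, and a log2 fold change of 0.58 ± 0.11 (SE, n = 3 per group, adjusted *p* = 0.00223). *PDK1*, a HIF target, had 611, 1105 and 585 in the parental and 492, 719 and 496 in the resistant libraries, overlapping between groups, and a log2 fold change of -0.39 ± 0.23 (SE, n = 3 per group, adjusted *p* = 0.217). Per kilobase, *PDK2* was 19.9 ± 1.6% of the parental and 25.8 ± 2.3% of the resistant sum of the 3 kinases and *PDK1* 5.2 ± 1.6% of the parental and 2.5 ± 0.46% of the resistant sum (SD, n = 3, exact permutation *p* = 0.1 each). These shares depend strongly on the length used, since the MANE Select transcript of *PDK1* is 14072 bases long. With the merged exons of each gene as the length, *PDK2* rather than *PDK3* was the largest part, at 49.7% of the parental and 62.4% of the resistant sum, against 30.4% and 28.2% for *PDK3*.

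Of the genes for the enzymes of the complex, *DLD* alone was called. *PDHA1*, *PDHB* and *DLAT*, which encode its first and second enzymes, were not called, with log2 fold changes of -0.11, -0.01 and -0.06. *DLD*, the third enzyme, which the pyruvate and oxoglutarate dehydrogenase complexes share, fell by 0.28 (adjusted *p* = 0.0111), a call that ended without parental library 3 (adjusted *p* = 0.0505).

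In the TCA cycle outside succinate dehydrogenase, 8 of 12 genes were called, 4 in each direction, and the groups of 10 of 12 did not overlap, where 37.7% and 49.9% of all tested genes did so. After the correction for neighbouring genes, *SUCLG2* was the 1 gene of the 12 (8.3%) still called, where 30.2% of all tested genes were called. *CS*, which encodes citrate synthase, the enzyme that admits acetyl-CoA to the cycle, had 7589, 6864 and 6911 in parental libraries 1, 2 and 3 and 4980.5, 4843 and 4518 in resistant libraries 7, 8 and 9. It was 1.49-fold lower in resistant cells, with a log2 fold change of -0.57 ± 0.07 (SE, n = 3 per group, adjusted *p* = 0.000119) and well separated groups. *IDH2*, the NADP-dependent mitochondrial isocitrate dehydrogenase, had 5571, 6693 and 6308 in the parental and 4141, 3943 and 4188 in the resistant libraries, and a log2 fold change of -0.59 ± 0.08 (SE, n = 3 per group, adjusted *p* = 0.000204).

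The NAD-dependent isocitrate dehydrogenase is built of 3 kinds of subunit, of which 2 were called, in opposite directions. *IDH3A*, the catalytic subunit, rose by 0.39 (adjusted *p* = 0.00223), *IDH3G* fell by 0.40 (adjusted *p* = 0.00509), and *IDH3B* was not called at 0.02. The *IDH3G* call ended when parental library 2 and resistant library 8 were both left out (adjusted *p* = 0.0565). In the oxoglutarate dehydrogenase complex, *DLST*, the succinyl transfer enzyme, rose by 0.37 (adjusted *p* = 0.000968), while *OGDH*, the first enzyme, had a log2 fold change of -0.17 (adjusted *p* = 0.0655), which passed the threshold without parental library 1 (adjusted *p* = 0.0388).

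Succinyl-CoA ligase joins a common subunit, *SUCLG1*, to either an ATP-forming partner, *SUCLA2*, or a GTP-forming partner, *SUCLG2*. *SUCLG2* had 263, 260.3 and 240.3 in parental libraries 1, 2 and 3 and 398, 371 and 381 in resistant libraries 7, 8 and 9, with no overlap, and a log2 fold change of 0.59 ± 0.11 (SE, n = 3 per group, adjusted *p* = 0.0026). *SUCLA2* rose by 0.28 (adjusted *p* = 0.0108), a call that ended when parental library 2 and resistant library 8 were both left out (adjusted *p* = 0.0761). *SUCLG1* had a log2 fold change of -0.24 (adjusted *p* = 0.0526) and -0.31 (adjusted *p* = 0.0284) without resistant library 7. At the end of the cycle, *MDH2*, mitochondrial malate dehydrogenase, fell by 0.36 (adjusted *p* = 0.0016), and *FH*, fumarase, was not called at 0.08.

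Succinate dehydrogenase, which is both a TCA cycle enzyme and complex II of the respiratory chain, has 4 subunits, and only the flavoprotein *SDHA* was called. *SDHA* had 6959, 7799.9 and 7628 in parental libraries 1, 2 and 3 and 5009.9, 4726 and 4888 in resistant libraries 7, 8 and 9, 1.53-fold lower in resistant cells without overlap, and a log2 fold change of -0.61 ± 0.06 (SE, n = 3 per group, adjusted *p* = 6.03e-05). The iron-sulphur subunit *SDHB* had -0.11 (adjusted *p* = 0.225), and the membrane anchors *SDHC* and *SDHD* had 0.17 and 0.18 (adjusted *p* = 0.0588 and 0.0572), so that *SDHA* and *SDHB* lay below 0 and the anchors above 0. The anchors passed the threshold after quantile normalization (adjusted *p* = 0.02 for *SDHC* and 0.0149 for *SDHD*) and with equal medians (adjusted *p* = 0.0385 and 0.0424), and *SDHD* also without parental library 1 (adjusted *p* = 0.0247).

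Gene levels in the resistant libraries also varied along the chromosomes, so each gene was set beside its neighbours. For every tested gene, the median log2 fold change was taken over the other genes in a window of 51 tested genes on the same chromosome. At *PFKL* the neighbours had a median of 1.26, the highest of the list, beside 1.74 for *PFKL* itself. The limit of 0.3 on the absolute neighbour median, set after the values were seen, was passed by 9 of 48 genes (18.8%) and by 15.2% of all tested genes. Of these 9, 8 were called, and all 8 had the sign of their neighbours. The same counts were not made for all tested genes past the limit, so no background stands beside them.

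*SDHA* (-0.61, neighbours -0.58), *CS* (-0.57, neighbours -0.55) and *IDH2* (-0.59, neighbours -0.62) changed by almost the same amount as their neighbours. So did *IDH3A* (0.39, neighbours 0.42), *DLST* (0.37, neighbours 0.42) and *MDH2* (-0.36, neighbours -0.45), and *DLD* had -0.28 with neighbours at -0.41. The ninth was *PKM*, at 0.04 among neighbours with a median of 0.38. Across the 48 genes, Pearson's r between a gene and its neighbours was 0.566, and 0.377 over the 47 genes other than *PFKL*. Over the 16306 tested genes with a neighbour median it was 0.295. These are descriptions across genes, which share libraries and, within a window, neighbours.

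**Figure D3:**
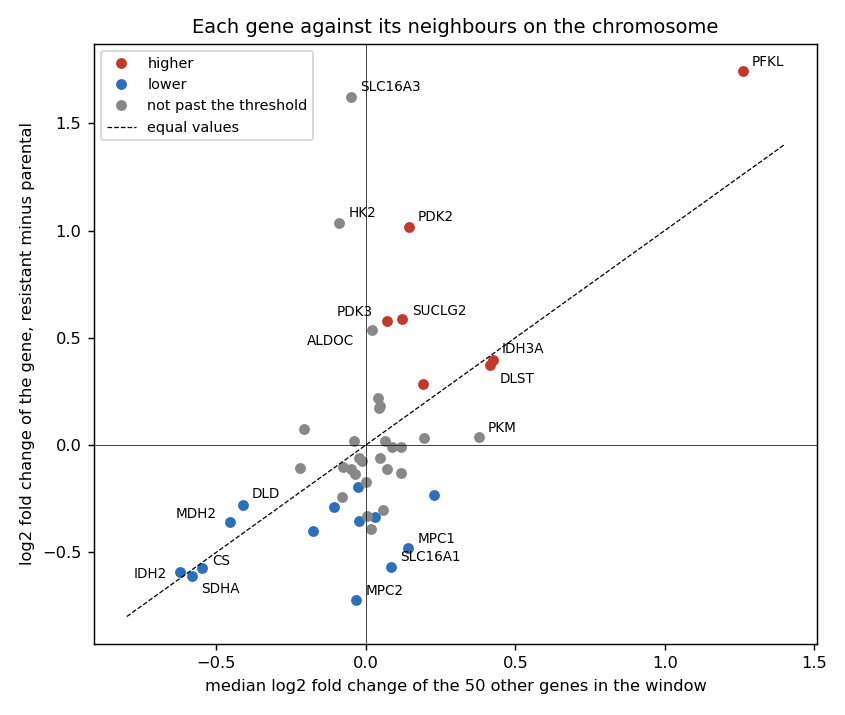
Log2 fold change of each of the 48 genes (vertical axis) against the median log2 fold change of its neighbours on the chromosome (horizontal axis), coloured by call, with a dashed line of equal values. *SDHA*, *CS*, *IDH2*, *IDH3A* and *DLST* lie on or near the line, *PFKL* lies above it at the far right, and *PDK2*, *PDK3*, *SUCLG2*, *MPC1*, *MPC2* and *SLC16A1* lie away from it with neighbours near 0.

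With each library corrected for the median shift of its window, 11 of 48 genes were called, 4 higher and 7 lower, where 30.2% of all tested genes were. Of the 21 calls, 10 were kept, and the share of calls kept over all tested genes was not computed. *PFKL* kept a log2 fold change of 0.43 (adjusted *p* = 0.003), beside 1.74 without the correction. *PDK2* (0.85, adjusted *p* = 0.000565), *PDK3* (0.52, adjusted *p* = 0.00816) and *SUCLG2* (0.45, adjusted *p* = 0.0158) remained higher. *MPC2* (-0.71, adjusted *p* = 0.000205), *MPC1* (-0.56, adjusted *p* = 0.00111), *SLC16A1* (-0.63, adjusted *p* = 0.000394), *PFKP*, *PGK1* and *ENO1* remained lower, and *PKM* became lower at -0.31 (adjusted *p* = 0.00548). *SDHA*, *CS*, *IDH2*, *IDH3A*, *IDH3G*, *DLST*, *SUCLA2*, *MDH2*, *DLD*, *TPI1* and *GAPDH* were no longer called. The cause of the shifts shared by neighbours was not tested.

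A small set of the genes varied within each group far more than the rest, and together. The within-group SD of log2 values was above 0.25 for 8 of 48 genes (16.7%), namely *SLC2A1*, *HK2*, *ALDOC*, *PFKFB3*, *PFKFB4*, *LDHA*, *SLC16A3* and *PDK1*. It was above 0.25 for 30.7% of all tested genes, and the median SD was 0.0927 in the list and 0.154 over all genes. Of the 8, all but *PFKFB3* were highest in library 2 of the parental and in library 8 of the resistant libraries. *PFKFB4*, for example, had 281, 656 and 366 in the parental and 249.7, 573 and 403 in the resistant libraries. In the whole list 17 of 48 genes (35.4%) had this pattern, against 12.4% of all tested genes.

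The deviation of parental library 2 from parental libraries 1 and 3 and that of resistant library 8 from resistant libraries 7 and 9 were correlated across the 48 genes, with Pearson's r = 0.922, and r = 0.523 over the 40 genes other than the 8. Over all 16347 tested genes r was 0.0706. It is a description across genes of 2 libraries each set against 2 others, and the labels do not pair library 2 with library 8.

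Most genes of a list of HIF pathway regulators and HIF targets outside glycolysis showed the same pattern. In this list, 16 of 21 tested genes (76.2%) were highest in both libraries, against 12.4% of all tested genes, with r = 0.887 between the deviations. The regulators, among them *HIF1A* and *ARNT*, and the targets were not counted apart. As examples chosen after their values were seen, *VEGFA*, a growth factor for blood vessels, had 368, 1679.7 and 929.7 in the parental and 711, 1735 and 1368 in the resistant libraries, *BNIP3*, which acts in mitochondrial turnover, had 1495, 3296 and 1808 in the parental and 1359.7, 2793 and 1668 in the resistant libraries, and *DDIT4*, a stress-induced inhibitor of mTORC1, had 454, 1863 and 752 in the parental and 298, 946 and 379.7 in the resistant libraries. In each of the 3, the highest parental library was 2 and the highest resistant library was 8. The cause of the likeness was not tested.

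**Figure D4:**
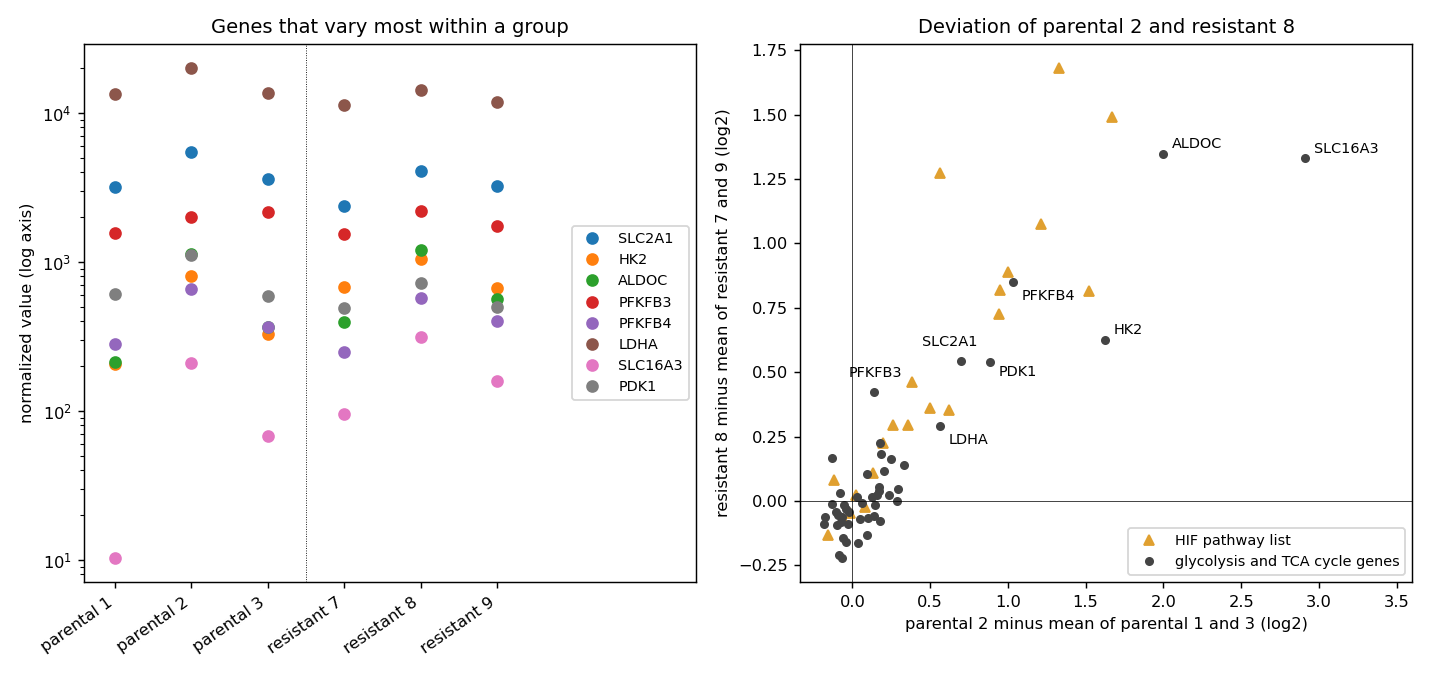
Left, normalized values on a log axis in each library for the 8 genes with a within-group SD above 0.25. Right, log2 deviation of parental library 2 from the other parental libraries (horizontal) and of resistant library 8 from the other resistant libraries (vertical) for the 48 genes (circles) and the HIF list (triangles), in which *ALDOC*, *SLC16A3*, *PFKFB4*, *HK2*, *PDK1* and *SLC2A1* lie high on both axes while most genes lie near 0.

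Without these 2 libraries, an analysis added after the data were seen, 17 of 48 genes were called, 7 higher and 10 lower, against 26.2% of the 16284 genes then tested. *HK2* joined the called genes and *PFKP*, *GAPDH*, *PGK1*, *IDH3G* and *SUCLA2* left them.

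The promoters of the variable genes were read for ACGTG, a form of the core of the HIF binding site, on both strands. The form GCGTG was not searched for, so the counts below are of ACGTG only. The E-box of MYC and related factors, CACGTG, contains ACGTG on both strands, so the motifs overlap. RefSeq promoters of build GRCh38.p14, from 250 bases before to 50 after each start, were matched to 44 of 49 genes. The 250 bases before the start are shown, 5′ to 3′ on the strand of the gene with ACGTG or its reverse complement in capitals, for the 3 of the 8 variable genes that hold ACGTG in the window. They are *HK2* (chr2:74833877-74834126, plus strand), *ALDOC* (chr17:28576896-28577145, minus strand) and *LDHA* (chr11:18394313-18394562, plus strand).
HK2: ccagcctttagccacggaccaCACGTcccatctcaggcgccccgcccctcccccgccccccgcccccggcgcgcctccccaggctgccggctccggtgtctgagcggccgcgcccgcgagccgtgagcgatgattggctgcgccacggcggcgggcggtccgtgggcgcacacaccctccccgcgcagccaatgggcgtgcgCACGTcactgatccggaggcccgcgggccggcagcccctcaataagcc
ALDOC: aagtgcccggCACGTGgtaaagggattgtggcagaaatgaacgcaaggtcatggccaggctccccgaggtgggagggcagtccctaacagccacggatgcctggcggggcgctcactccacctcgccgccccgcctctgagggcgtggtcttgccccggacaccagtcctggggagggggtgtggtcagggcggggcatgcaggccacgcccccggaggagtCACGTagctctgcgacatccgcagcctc
LDHA: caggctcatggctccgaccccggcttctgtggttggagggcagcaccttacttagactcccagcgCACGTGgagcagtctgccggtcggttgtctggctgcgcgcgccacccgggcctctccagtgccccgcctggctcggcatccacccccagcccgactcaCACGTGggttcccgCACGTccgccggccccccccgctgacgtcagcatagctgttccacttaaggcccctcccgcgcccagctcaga
In these windows the *LDHA* promoter holds CACGTG in 2 places and the *ALDOC* promoter in 1, and the *HK2* promoter holds ACGTG in 2 places and no E-box. ACGTG was found in 12 of 44 promoters of the list (27.3%), in 3 of the 8 variable genes (37.5%), in 26.5% of the promoters of tested genes and in 21.6% of all 27305 promoters. The E-box was found in 4 of 44 (9.09%), in 2 of the 8 variable genes (25%) and in 10.1% of the promoters of tested genes. The shares of the whole list were close to those of tested genes, and a match is a run of letters and not a site shown to be bound.

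Beyond the 49 genes, a further list of glycolysis, pyruvate and TCA genes held 33 genes, of which 24 could be tested. Of these, 7 were higher and 5 lower (50% called, median log2 fold change 0.11). Besides *BSG*, the smallest *p* values belonged to *BPGM* and *OGDHL*. *BPGM*, which makes the phosphoglycerate that regulates haemoglobin in red cells, had 1088, 979.6 and 1084 in the parental and 631, 664 and 679 in the resistant libraries. It fell by 0.67 (adjusted *p* = 0.000214), with neighbours on the chromosome at a median of -0.31. *OGDHL*, a relative of *OGDH*, had 741, 1059.6 and 1033 in the parental and 1769.9, 1920.4 and 1716 in the resistant libraries. It rose by 0.95 (adjusted *p* = 0.00031), with neighbours at 0.12. In the HIF list, 3 of 21 tested genes were higher and 1 was lower (19% called, against 37.7% of all tested genes). *HIF1A*, the oxygen-regulated subunit, rose by 0.44 (adjusted *p* = 0.000972, neighbours 0.38), *EGLN3*, a prolyl hydroxylase, rose by 0.28 (adjusted *p* = 0.00678, neighbours 0.43) and its relative *EGLN2* fell by 0.51 (adjusted *p* = 0.000384, neighbours -0.14), all on the log2 scale. After the correction for neighbours *HIF1A* was no longer called, at 0.016, and *EGLN3* turned to -0.19. The other gene called higher was *EPAS1*, at 27.5, 38.9 and 24.7 in the parental and 53, 127.5 and 51.4 in the resistant libraries. *EPAS1* rose by 1.21 on the log2 scale (adjusted *p* = 0.0275), with neighbours at -0.09.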

How the data were processed

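RNA of 3 parental and 3 resistant libraries had been sequenced by the authors, trimmed with Trimmomatic 0.38, aligned and quantified with STAR and RSEM 1.3.1 (GRCh38 primary assembly, Gencode v43), and normalized with DESeq2 1.30.0. The deposited table therefore holds a normalized signal, not counts. Only 47.9% to 62.6% of low values lay within 0.05 of whole multiples of the value of 1 read, so whole reads were not recovered, no count test was run, and depth is an estimate. Of 62757 rows, 47 second copies of pseudoautosomal genes were left out, and 62639 of 62710 were matched to Gencode v44. Genes with a mean of 10 or more were tested with limma 3.58.1 (R 4.3.3) on log2(value + 1), with a trend and no term but condition, and adjusted by Benjamini-Hochberg at 0.05. Fold changes on this scale understate those of low genes. Isozyme shares used the value per kilobase of the MANE Select transcript. The limit of 3 reads covers counting error only. Values in every library are given for called genes with a log2 fold change of at least 0.5 in size, for isozyme sets and for 1 gene of a step that has no other, with up to 3 genes of smallest *p* from further lists. *MPC1* and *PFKFB4*, *VEGFA*, *BNIP3*, *DDIT4*, *EPAS1* and *MTHFD2* are described outside or beside this rule. Some results of the further lists are not reported here. The genes and lists were chosen with earlier results of these data known. The limma steps were tested on simulated data. The tests were repeated with a pseudocount of 0.1 or 10, without the filter or with a minimum of 50, after quantile normalization or scaling to equal medians, and without the trend, with centring on 51 neighbouring genes, with merged exon lengths and with each library left out. Other steps used Python 3.11.15, numpy 2.4.6, pandas 2.3.3, scipy 1.17.1 and matplotlib 3.10.9.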

Additional observations from a re-analysis of the deposited data

How the results depend on the processing

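The number of called genes was 17 to 23 with each library left out in turn (7 to 10 higher, 10 to 15 lower), and the median log2 fold change was -0.159 to -0.0567. Without the trend 9 genes were called lower, in place of 14. Shares of all tested genes under these settings are not given here, so these counts cannot be set against them. Centring on neighbouring genes left 11 called, 4 higher and 7 lower, and turned the sign of the log2 fold change of *ALDOA* (0.11), *LDHB* (-0.15), *IDH3B* (-0.039), *PKM* (-0.31), *DLD* (0.18), *IDH3A* (-0.074), *DLST* (-0.045) and *MDH2* (0.025), and, among called genes of the further lists, of *ADPGK* (-0.14), *GLS2* (0.17) and *EGLN3* (-0.19). The cause was not tested. With merged exon lengths the change of share in percentage points was 29.2 for *PFKL*, -23.8 for *PFKP*, -10.6 for *PDK1* and 12.7 for *PDK2*, against 30.3, -25.5, -2.71 and 5.94 with the MANE Select transcript. Of the 21 called genes, 15 kept their call under all the alternatives other than centring on neighbours and leaving out parental library 2 with resistant library 8, the exceptions being *PFKP*, *TPI1*, *GAPDH*, *PGK1*, *ENO1* and *DLD*. No paired analysis was run because the groups share no replicate number. The authors describe the parental and resistant cells as matched, from 3 separate samples, without naming pairs of libraries. No source used here says which parental and resistant libraries were extracted at the same time. With 3 libraries per group, an exact permutation test of a single value cannot give a *p* below 0.1, and levels under 3 reads, as for *SLC2A3* in resistant library 8, cannot be told from 0.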

Other observations

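The following pathways branch from glycolysis and the TCA cycle, and 37.7% of all tested genes were called. In the pentose phosphate pathway, which makes NADPH and ribose, 1 of 9 genes was higher and 1 lower. *PGLS*, its second enzyme, had 568, 581 and 588 in the parental and 831, 849 and 900.2 in the resistant libraries and rose by 0.57 (adjusted *p* = 0.000554), and *TKT*, a transketolase, fell by 0.24 (adjusted *p* = 0.00883). In glycogen metabolism 2 of 10 genes were higher (20%) and none was lower. *PYGL*, liver glycogen phosphorylase, which releases glucose units from glycogen, had 102, 167 and 109 in the parental and 400.4, 416 and 389 in the resistant libraries. Its groups did not overlap, and it rose by 1.70 (adjusted *p* = 8.85e-05, neighbours 0.27). *PYGB*, another phosphorylase, had a parental mean of 3118.5, against 126 for *PYGL*. It was not called, at -0.18 (adjusted *p* = 0.0508).

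In serine and one-carbon synthesis 2 of 8 genes were higher and 2 lower. *SHMT2*, the mitochondrial enzyme that splits serine, had 9054, 9415 and 8970.5 in the parental and 6064, 6015 and 6319 in the resistant libraries and fell by 0.58 (adjusted *p* = 3.86e-05), with neighbours on the chromosome at a median of -0.65. *MTHFD1*, a cytosolic enzyme of the folate cycle, had 6351, 6034 and 6098 in the parental and 9058, 8311 and 8812 in the resistant libraries. It rose by 0.50 (adjusted *p* = 0.000132, neighbours 0.37). The other gene called higher, the mitochondrial *MTHFD2*, rose by 0.23 (adjusted *p* = 0.00984, neighbours -0.10). *PSPH*, the last enzyme of serine synthesis, fell by 0.45 (adjusted *p* = 0.00423). After the correction for neighbours *SHMT2* (-0.008) and *MTHFD1* (0.081) were no longer called. Of 11 genes of glutamine use and citrate export, *ME3*, a mitochondrial malic enzyme, rose by 0.69 (adjusted *p* = 0.00741) and *GLS2*, a glutaminase, fell by 0.40 (adjusted *p* = 0.00625), with neighbours at -0.65 and a turn to 0.17 after the correction for them. Of 6 tested genes of the NADH shuttles, the aspartate and glutamate carrier *SLC25A13* fell by 0.64 (adjusted *p* = 0.00029, neighbours -0.38). The oxoglutarate carrier *SLC25A11* fell by 0.27 (adjusted *p* = 0.0219, neighbours -0.03). All changes in these pathways are on the log2 scale and were tested with limma.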
